A study of Mus musculus with 10 samples.

Results

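Lysozyme and 5 further proteins of the Paneth cell granule were followed across 5 sorted populations of mouse small-intestinal crypt cells. The genes are Lyz1, Lyz2, Mmp7, Itln1, Ang4 and Pla2g2a, and they were picked by name as granule proteins of the mouse Paneth cell, 6 of the 35006 gene names in the count files. Alpha-defensins, the other main content of the granule, were kept out of the set. All 6 genes passed the filter on low counts and were among the 13708 genes tested.

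Paneth cells sit at the base of the small-intestinal crypt between the stem cells and discharge antimicrobial proteins from large granules into the crypt lumen. Lysozyme cleaves the peptidoglycan of the bacterial wall, and the mouse has a Paneth form (Lyz1) and a form best known from macrophages and granulocytes (Lyz2). Matrilysin (Mmp7) is the protease that activates the alpha-defensin precursors in the granule, Itln1 is a lectin that binds microbial sugars, Ang4 is an angiogenin-family ribonuclease with microbicidal activity, and Pla2g2a is the secretory phospholipase A2, a gene that carries a frameshift in C57BL/6 mice.

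The cells came from EF1a-OSCAR mice on the strain labelled C57BL6/J, which carry mCherry and VeN90 on a single transcript in the Rosa26 locus under the EF1a promoter. Germline deletion of a stop cassette with Vasa-Cre makes the reporter active in all tissues. VeN90 is a Venus variant that dims when CDK9, the kinase that releases paused RNA polymerase II, phosphorylates it, and OSCAR is the ratio of VeN90 to mCherry. Live EpCAM+ crypt cells were sorted into P1 (OSCARlow EF1alow), P2 (OSCARhigh EF1alow), P3 (OSCARlow EF1ahigh), P4 (OSCARmed EF1alow) and P5 (OSCARmed EF1ahigh), 10000 cells each, with 2 libraries per population and 10 in all. The study calls the 2 libraries biological replicates, and the age and sex of the mice are not given in the sources used here.

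Depth ranged from 3857612 to 6485823 gene counts per library. The mitochondrial share was 59.2% and 36.1% for the libraries of P3 and between 1.04% and 5.19% for the other 8. The study's own plots place the secretory cell markers in P3, and the deposited libraries with those markers are labelled P2. The gates cannot be checked from the counts, so populations are named by their deposited labels and no direction along OSCAR is drawn from P2 or P3.

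Lyz1 (ENSMUSG00000069515.5) and Lyz2 (ENSMUSG00000069516.6) are neighbors on the minus strand of chromosome 10. In NCBIM37, the build called mm9 in the labels, Lyz1 spans chr10:116724852-116729924 and Lyz2 spans chr10:116714390-116719377, with 5474 bases between them and 4 exons each. Their coding sequences have 447 bases each and differ at 22, an identity of 95.1%. A stretch of exon 1 holds 13 of these differences within 90 bases, and it is shown as the in-frame stretch of that length with the most differences. It covers coding bases 43 to 132, at chr10:116729763-116729852 for Lyz1 and chr10:116719167-116719256 for Lyz2, both on the minus strand. Capitals mark the bases that differ.
Lyz1: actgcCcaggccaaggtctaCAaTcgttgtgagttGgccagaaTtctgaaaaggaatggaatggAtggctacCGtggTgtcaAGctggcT
Lyz2: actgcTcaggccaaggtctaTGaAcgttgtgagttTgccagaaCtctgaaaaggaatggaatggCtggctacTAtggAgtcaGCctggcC

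The longest coding run without a difference has 118 bases, more than the 75 cycles of sequencing. Of the 1190 windows of 75 bases in the Lyz1 transcript, 74 (6.22%) occur unchanged in Lyz2, and 531 (44.6%) do so within 2 mismatches. Because multiply aligned reads were discarded, both lysozyme counts are low by an unknown amount, and reads moved from one gene to the other by sequencing errors cannot be seen in the counts. Mmp7 and Itln1 had no window in common with another annotated coding transcript, and Ang4 had 5 of 635 in common with Ang5, which had 1 count in all libraries together. Mmp7 (chr9:7692086-7699585) has 123 exonic bases in common with AV064505 on the other strand, counted without strand, and AV064505 had between 0 and 23 counts per library. Pla2g2a (chr4:138387772-138391101) overlaps Pla2g5 on the other strand without sharing exon bases, and it is annotated as a processed transcript, not as protein coding.

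The libraries labelled P2 had more of all 6 transcripts than the mean of the other 4 populations. Lyz1 was the gene with the most counts in both P2 libraries. It took 18.2% of the counts in replicate 1 (95% Wilson interval 18.15 to 18.22%) and 12.9% in replicate 2 (12.92 to 12.97%), against 0.0278% (0.0264 to 0.0292%) and 0.0575% (0.0556 to 0.0593%) in the P4 libraries. The 6 genes together made up 26.2% and 18.8% of the counts in P2, 1.30% and 4.05% in P1, 0.108% in both P3 libraries, 0.0514% and 0.0911% for P4, and 0.985% and 0.207% for P5. The intervals cover counting error only. For the 6 genes together, the 2 replicates lie much farther apart than their intervals in every population but P3. There the intervals overlap, at 0.105 to 0.111% in both libraries. In sorted bulk samples, fewer Paneth cells and less granule RNA per cell cannot be told apart.

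Levels are given below as normalized CPM, the count relative to a library size that was scaled with TMM, a method that sets the bulk of genes level between libraries, and they need not sum to the same total in every library. Lyz1 stood at 264451 and 183077 normalized CPM in the P2 libraries, 8983 and 28043 in the P1 libraries, 1376 and 697 for P3, 184 and 369 for P4, and 4836 and 872 for P5, for replicates 1 and 2. Both P2 libraries were above every other library. The mean in P2 was 223764 ± 57540 (SD, n = 2) against 18513 ± 13477 in P1, and the fitted log2 difference between P2 and the mean of the other 4, taken on the log2 scale, was 6.83 ± 0.73 (SE), or 113-fold (adjusted p = 0.000119, the quasi-likelihood test of edgeR, Benjamini-Hochberg adjusted).

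**Figure D1:**
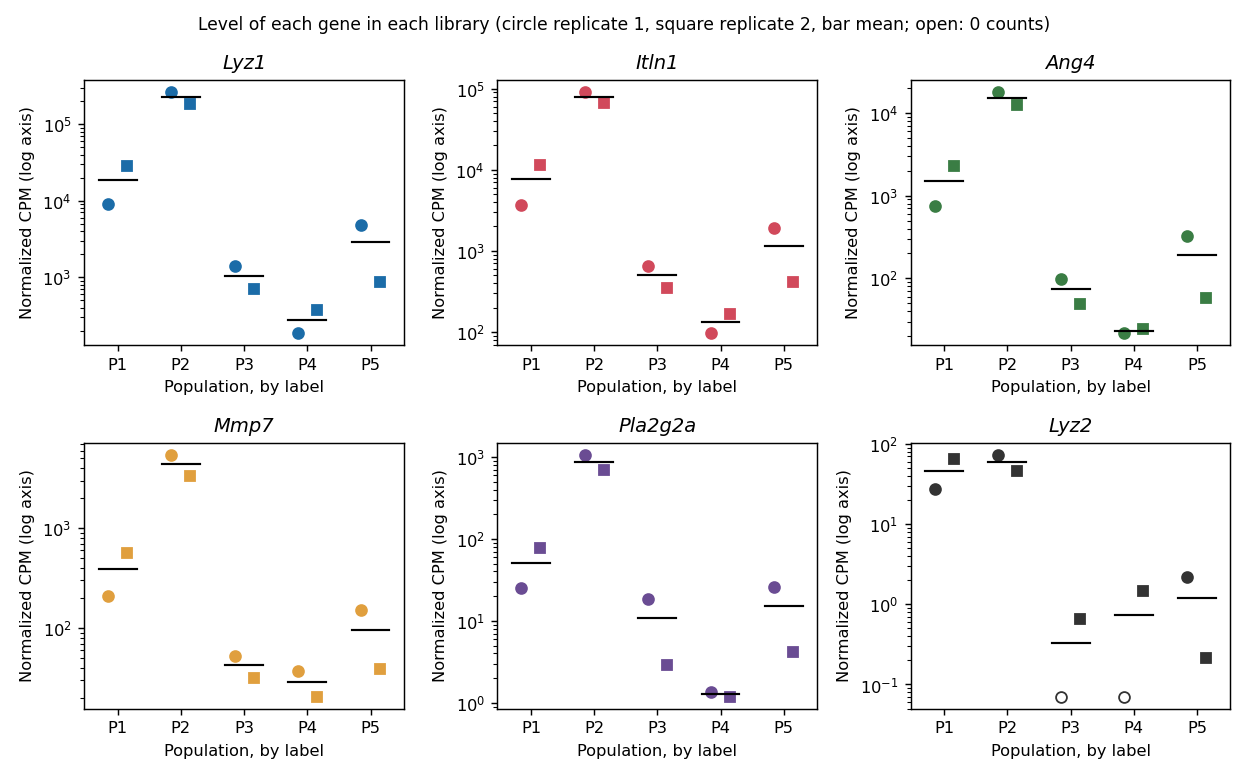
Normalized CPM (log axis) of each of the 6 genes in each library, by labelled population. Circles are replicate 1, squares replicate 2, bars the mean of both, and open circles libraries with 0 counts, drawn below the lowest measured value. P2 is the highest population for every gene by its mean, and for Lyz2 its replicate 2 (46.5) lies below replicate 2 of P1 (64.7).

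Itln1 (ENSMUSG00000038209.6, chr1:173448253-173465425, minus strand), the lectin, ordered the populations as Lyz1 did. It stood at 91622 and 65868 normalized CPM in P2, 3672 and 11587 in P1, 659 and 344 for P3, 96.1 and 168 for P4, and 1903 and 417 for P5. The P2 libraries did not overlap any other. Ang4 (ENSMUSG00000060615.5, chr14:52383553-52393265, minus strand), the ribonuclease, stood at 17928 and 12434 normalized CPM in P2, 751 and 2276 in P1, 99.4 and 49.4 for P3, 21.7 and 24.5 for P4, and 323 and 58.6 for P5. Again P2 was apart from the rest, and P4 was the lowest population. The log2 difference between P2 and the mean of the other 4 was 6.49 ± 0.61 (SE) for Itln1 and 6.67 ± 0.56 for Ang4.

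Mmp7 (ENSMUSG00000018623.8), the defensin-activating protease, had the same order of populations. It stood at 5395 and 3369 normalized CPM in P2, 210 and 568 in P1, 52.9 and 31.9 for P3, 37.3 and 20.6 for P4, and 152 and 38.8 for P5. The range of its population means, 151-fold from P2 to P4, was smaller than the 596- to 810-fold range of Lyz1, Itln1, Ang4 and Pla2g2a. Pla2g2a (ENSMUSG00000058908.8), the phospholipase, stood at 1050 and 684 normalized CPM in P2, 25.3 and 76.9 in P1, 18.5 and 2.88 for P3, 1.35 and 1.19 for P4, and 26.0 and 4.22 for P5. Both P2 libraries were above all others, and replicate 1 of P5 was level with replicate 1 of P1. The log2 difference between P2 and the mean of the other 4 was 5.74 ± 0.47 (SE) for Mmp7 and 6.46 ± 0.61 for Pla2g2a.

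Lyz2, the other lysozyme, was a minor transcript, with a mean of 45.4 normalized CPM per kilobase of exon in P2 against 177029 for Lyz1. Its counts were 239 and 209 in P2, 161 and 388 in P1, 0 and 3 for P3, 0 and 15 for P4, and 19 and 2 for P5. In normalized CPM this was 72.7 and 46.5 in P2, 27.2 and 64.7 in P1, and at most 2.17 for the remaining 6 libraries. P1 and P2 therefore overlapped for Lyz2, and in 4 of the remaining 6 libraries its count was at or below the floor of 3. Its log2 difference between P2 and the mean of the other 4 was 4.79 ± 0.63 (SE), a value that depends on how near-empty libraries are handled. By the quasi-likelihood test of edgeR, Benjamini-Hochberg adjusted, all 6 genes passed an adjusted p under 0.01 in P2 against the mean of the other 4, with adjusted p from 3.08e-05 to 0.000366, where 16.3% of all genes tested passed in the same direction. Both P2 libraries were above all other 8 for 5 of the 6 genes, against 20.2% of all genes tested.

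**Figure D2:**
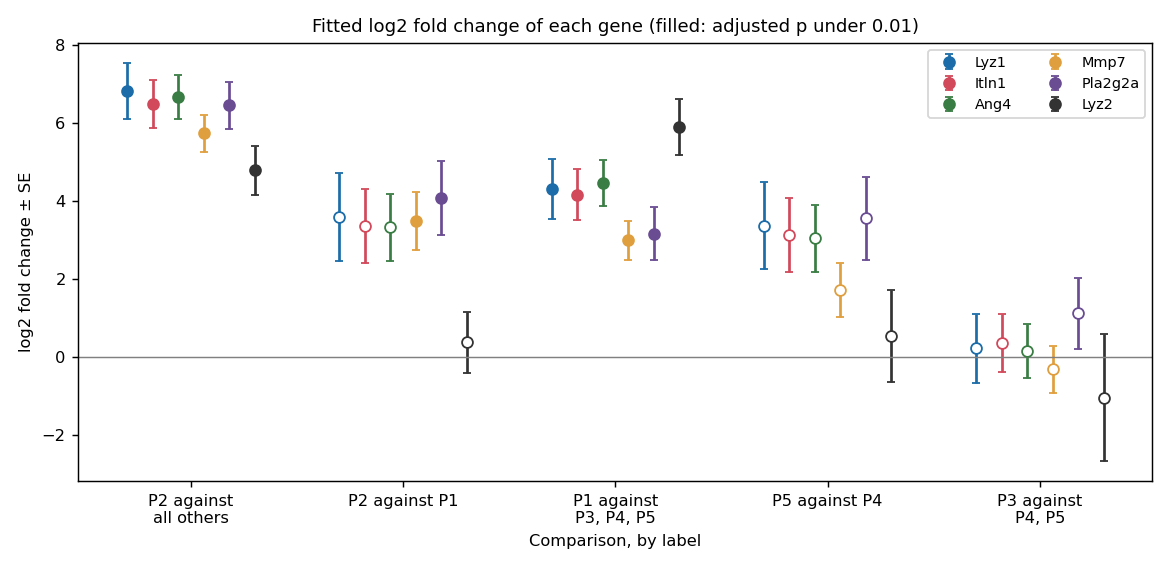
Fitted log2 fold change with its SE (y axis) of the 6 genes in the 5 comparisons between labelled populations (x axis), over 10 libraries. Filled circles passed an adjusted p under 0.01 and open circles did not: all 6 are filled in P2 against all others and in P1 against P3, P4 and P5, 2 in P2 against P1, and none in P5 against P4 or in P3 against P4 and P5.

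P1 was the second highest population for all 6 genes. Against the average of P3, P4 and P5, the log2 difference was 4.31 ± 0.77 (SE) for Lyz1, 4.17 ± 0.65 for Itln1, 4.46 ± 0.59 for Ang4, 2.99 ± 0.51 for Mmp7, 3.17 ± 0.68 for Pla2g2a and 5.90 ± 0.72 for Lyz2. All 6 passed the threshold (adjusted p between 0.000336 and 0.0046, the quasi-likelihood test of edgeR, Benjamini-Hochberg adjusted), beside 18.8% of all genes. Both P1 libraries lay above all 6 libraries of P3, P4 and P5 for every gene but Pla2g2a, a pattern found in 26.5% of all genes tested. These calls leaned on replicate 2 of P1: without it, 2 of the 6 passed, Ang4 and Lyz2. Without replicate 1 of P4, Lyz1 and Pla2g2a missed the threshold, and without replicate 2 of P4, Pla2g2a did (adjusted p between 0.0103 and 0.0134 in the same edgeR test).

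The 2 libraries of P1 differed in the granule transcripts as a group. Replicate 2 held 168117 counts of Lyz1 against 53170 in replicate 1, 69464 against 21736 of Itln1, and 13643 against 4443 of Ang4. Mmp7 had 3405 against 1241 counts, Pla2g2a 461 against 150, and Lyz2 388 against 161. On the normalized scale the ratio of replicate 2 to replicate 1 was 3.12 for Lyz1, 3.16 for Itln1, 3.03 for Ang4, 2.71 for Mmp7, 3.03 for Pla2g2a and 2.38 for Lyz2. All genes together had a median log2 ratio of -0.01 between these libraries, and 5th and 95th percentiles of -1.43 and 1.26, so 5 of the 6 genes lay beyond the upper limit and Lyz2, at 1.25, just within it. With 1 library on each side, this is a description without a test. That the P1 libraries differ in Paneth RNA was known from earlier results of these data.

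**Figure D3:**
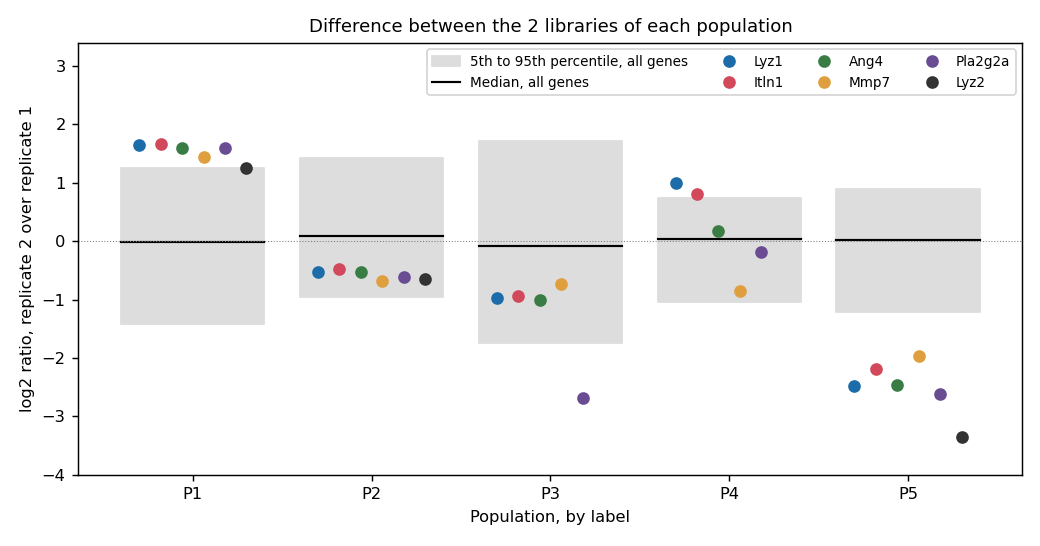
log2 ratio of normalized CPM, replicate 2 over replicate 1 (y axis), for each labelled population (x axis). Points are the 6 genes, gray bands the 5th to 95th percentile of all genes and black bars their median. The genes moved together upward in P1 (log2 ratios of 1.25 to 1.66) and downward in P5 (-1.97 to -3.36), and Lyz2 is not drawn in P3 and P4, where a library had 0 counts.

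P5 showed a split of the opposite sign and larger size. Replicate 1 held 42327 counts of Lyz1 against 8254 in replicate 2, and the ratio of replicate 1 to replicate 2 on the normalized scale was 5.55 for Lyz1, 4.56 for Itln1, 5.50 for Ang4, 3.92 for Mmp7 and 6.17 for Pla2g2a. For Lyz2 the ratio of 10.3 rested on 19 and 2 counts. All 6 genes lay beyond the 5th percentile of all genes in P5, a log2 ratio of -1.21 for replicate 2 over replicate 1. In P2 the libraries were closer, with replicate 1 higher by 1.39-fold (Itln1) to 1.60-fold (Mmp7). In P3 replicate 1 was higher on the normalized scale for the 5 genes with counts in both libraries, by 1.66-fold (Mmp7) to 6.43-fold (Pla2g2a, on 35 and 13 counts). Of these only Pla2g2a, at a log2 ratio of -2.69, lay beyond the 5th percentile of all genes in P3, which was -1.74. The TMM factors of these libraries were 0.490 and 0.963. By share of counts the 6 genes together stood at 0.108% in both. Lyz1 took 0.0674% and 0.0671% of the counts, Mmp7 0.00259% and 0.00306%, and Pla2g2a 0.000907% and 0.000277%. In P4 the genes did not move together: Lyz1 and Itln1 were 2.01- and 1.75-fold higher in replicate 2, and Mmp7 was 1.82-fold higher in replicate 1.

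Relative to Lyz1, the lectin and the ribonuclease kept nearly the same proportion in every library. Per kilobase of exon, Itln1 stood between 38.4% and 57.9% of Lyz1 and Ang4 between 11.9% and 21.0%, a range of 1.51-fold and 1.77-fold, while the mean of Lyz1 itself ranged 810-fold between populations. The 2 libraries of P1 were close, at 45.3% and 45.8% for Itln1 and at 14.9% and 14.5% for Ang4, although the level of Lyz1 differed 3.12-fold between them. P2 held the lowest Itln1 proportions, 38.4% and 39.9%.

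Mmp7 and Pla2g2a kept the proportion less well. Mmp7 was between 2.17% and 2.75% of Lyz1 per kilobase in the 4 libraries of P1 and P2, between 3.71% and 5.39% in those of P3 and P5, and at 24.0% and 6.58% in P4. It was thus highest relative to Lyz1 where Lyz1 was lowest, on 305 and 208 counts of Mmp7. Pla2g2a was between 0.373% and 1.83% of Lyz1, with the highest value, in replicate 1 of P3, on 35 counts.

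Lyz2 departed from this proportion between the populations that held nearly all of its counts. Per kilobase it was 0.292% and 0.222% of Lyz1 in P1 and 0.0265% and 0.0244% in P2, so its proportion was 8.4-fold higher in P1 than in P2 even between the nearest libraries. The highest proportion of the 10 libraries, 0.387% in replicate 2 of P4, rested on 15 counts of Lyz2. The mean level of Lyz1 per kilobase was 418 times that of Lyz2 in P1 and 3901 times in P2. The share of Lyz1 reads that could have been assigned to Lyz2 was not tested. In replicate 2 of P2, 209 counts fell on Lyz2 and 823102 on Lyz1. How many of the 209 were assigned in error cannot be seen in the counts.

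**Figure D4:**
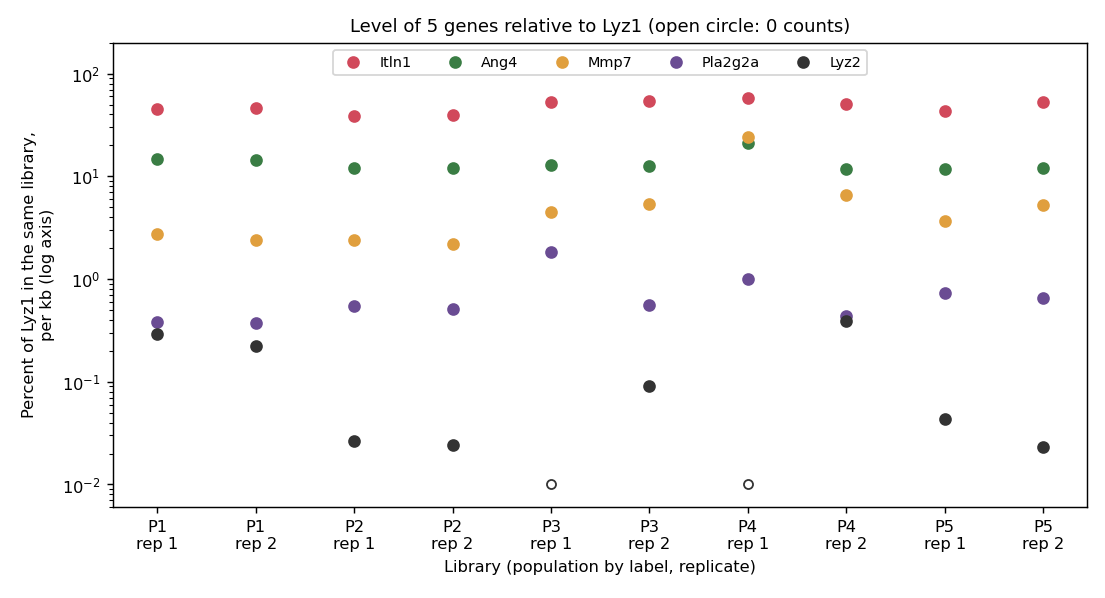
Level of 5 genes per kilobase of exon as a percent of Lyz1 in the same library (y axis, log), for each of the 10 libraries (x axis). Itln1 (38.4 to 57.9%) and Ang4 (11.9 to 21.0%) are nearly level, and Mmp7 rises to 24.0% in replicate 1 of P4. Lyz2 lies near 0.2 to 0.3% in P1 and near 0.02% in P2, with open circles where it had 0 counts. Its highest value, 0.387% in replicate 2 of P4, rests on 15 counts.

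Because Lyz2 is known from macrophages and granulocytes, markers of leukocytes were counted beside it, some of them chosen after their values were seen. Of 22 myeloid markers in the files, 4 had no count in any library, among them S100a8 and S100a9 of granulocytes, and the macrophage receptor gene Csf1r had 2 and 3 counts in P1 and 2 and 1 in P2. The summed level of the 22 was 250 and 103 normalized CPM in replicates 1 and 2 of P1, 151 and 114 in P2, and 36.2 to 75.1 in the other libraries. A single marker, Lcp1, gave most of the P2 sum, with 431 of 495 and 348 of 512 counts. In P1 it gave 229 of 1479 and 146 of 620. Tyrobp and Fcer1g had 0 counts in both P2 libraries. Ptprc, which encodes the pan-leukocyte antigen CD45, had 665 counts in replicate 1 and 154 in replicate 2 of P1, against 47 and 100 in P2 and 1 to 57 in the rest. Cd8a, a T cell marker, had 719 and 143 counts in P1 and none in P2. Itgam, an integrin gene of macrophages and granulocytes, had 83 and 125 counts in P1, 0 and 6 in P2, and 13 to 120 in the other libraries. Within P1, Ptprc and Cd8a were thus higher in replicate 1, and Lyz2 and Itgam in replicate 2. Laptm5 (222 and 67 counts), Fcer1g (129 and 35) and Tyrobp (114 and 41), also of the myeloid list, were higher in replicate 1. Of the 22 myeloid markers, 7 were higher in replicate 1 of P1 on the normalized scale, 9 in replicate 2, and 6 had no count in either. Apart from Itgam, the 9 had at most 23 counts in a P1 library. The part of leukocytes in the Lyz2 counts was not tested.

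P2 was compared directly with P1 because earlier results of these data gave these 2 populations the most Paneth RNA. Of the 6 genes, 2 passed the threshold, where 13.9% of all genes tested passed in that direction. The log2 difference was 3.49 ± 0.75 (SE) for Mmp7 (adjusted p = 0.0049) and 4.08 ± 0.95 for Pla2g2a (adjusted p = 0.0072), both by the quasi-likelihood test of edgeR, Benjamini-Hochberg adjusted. Lyz1 (3.60 ± 1.14), Itln1 (3.37 ± 0.95) and Ang4 (3.33 ± 0.86) had differences of like size with adjusted p of 0.0276, 0.0173 and 0.0115 in the same test. Each of these 5 genes had both P2 libraries above both P1 libraries, as did 38.5% of all genes. Both calls were lost when either library of P1 or P2 was left out, that of Pla2g2a also without either library of P4, and Ang4 passed without either library of P5. DESeq2 called 5 of the 6 genes, all but Lyz2, as higher, and 16.3% of the genes it tested. For Lyz2 the difference was 0.37 ± 0.78 (adjusted p = 0.721 in edgeR's quasi-likelihood test), and the P1 and P2 libraries interleaved.

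Between the medium OSCAR populations, 5 of the 6 genes had both P5 libraries above both P4 libraries, against 16% of all genes. The log2 difference was 3.37 ± 1.12 (SE) for Lyz1, 3.13 ± 0.94 for Itln1, 3.04 ± 0.85 for Ang4, 1.72 ± 0.70 for Mmp7, 3.56 ± 1.07 for Pla2g2a and 0.55 ± 1.18 for Lyz2. None of the 6 passed the threshold in edgeR's quasi-likelihood test (adjusted p from 0.921 to 1), in which 0% of all genes passed. The unadjusted p of the same test was 0.0058 to 0.036 for the 5 genes and 0.653 for Lyz2, and 351 of 13708 genes had an unadjusted p under 0.05. DESeq2 called 3 of the 6, Lyz1, Itln1 and Ang4, and 0.24% of the genes it tested (28 in all).

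By its mean, P3 lay between P4 and P5 for every gene but Lyz2. Against the average of P4 and P5, the log2 difference ranged from -1.05 ± 1.64 (SE) for Lyz2 to 1.12 ± 0.92 for Pla2g2a, and Lyz1 stood at 0.22 ± 0.88. None of the 6 passed in edgeR's quasi-likelihood test (adjusted p 0.542 to 0.929), where 0.0292% of all genes did, and DESeq2 called none of the 6. Of the 6, none had an unadjusted p under 0.05, beside 2373 of all genes. Scaling by total counts alone took the median of all genes in this comparison from 0.061 to -0.96 and Lyz1 to -0.95, level with that median. The P3 libraries are those with the large mitochondrial share, and its part in these values was not tested.

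A term that compared P3 minus P1 with P5 minus P4, by label the EF1a contrasts at low and at medium OSCAR, was added after the values had been seen. It rests on the label of P3, which is in doubt. As labelled, the difference of the contrasts ranged from -7.53 ± 1.62 (SE) for Lyz1 to -4.93 ± 1.02 for Mmp7 on the log2 scale. None of the 6 passed the threshold in edgeR's quasi-likelihood test (adjusted p 0.0109 to 0.03), and 0.817% of all genes did. All 6 had an unadjusted p of 0.0036 or less, and DESeq2 called 5, beside 14.5% of the genes it tested. With the labels of P2 and P3 exchanged, the first contrast became P2 minus P1, which was positive for each of the 6 genes, and the difference of the contrasts was 0.23 ± 1.45 (SE) for Lyz1 and between -0.18 (Lyz2) and 1.77 (Mmp7) for all 6. None passed in that order either (adjusted p 0.19 to 0.938 in the edgeR test), beside 14.9% of all genes, so neither the sign nor the size of this term can be given without the gate of these libraries.

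The order of the population means was P2, P1, P5, P3 and P4 for Lyz1, Itln1, Ang4, Mmp7 and Pla2g2a. For Lyz2 it was P2, P1, P5, P4 and P3. Of the 10 pairs of populations, edgeR's quasi-likelihood test called 4 for Lyz1 and Itln1, 5 for Mmp7, Ang4 and Pla2g2a, and 6 for Lyz2. All 6 genes were called as higher in P2 than in P3, P4 and P5 and in P1 than in P4, where 10.5%, 8.02%, 8.75% and 14% of all genes were. P1 was called above P3 for Ang4 and Lyz2, beside 7.59% of all genes, and above P5 for Lyz2, beside 11.2%. No pair of neighbors in the order passed the threshold for Lyz1, and P5, P3 and P4 did not pass in any pair among themselves for any of the 6 genes. Lyz2 was the one gene of the 6 for which P1 passed against P5, at a log2 difference of 5.27 (adjusted p = 0.0044 in the edgeR test), and the others stood at 1.76 to 2.99.

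The genes most like each member were found by Pearson's r of log2 CPM over the 10 libraries, as a description. Nearest to Lyz1 were the alpha-defensin Defa24 (r = 0.999), Clps, which encodes colipase (0.998), the defensin-related genes Gm15284 (0.998) and AY761184 (0.997), and Defa17 (0.996). Defa24, Clps and Gm15284 were also the 3 nearest to Itln1, 2 of them when P2 was left out, and Defa24 and Clps led for Ang4. For Mmp7 the nearest were Habp2, Gif and Pnliprp2 (0.991 to 0.986), of which 1 was kept when the scaling was changed and 1 when P2 was left out, and for Pla2g2a the nearest was Gm15292 (0.994). Lyz2 had other neighbors, Inppl1, Ranbp9 and Dnm2 (0.980 to 0.963), and none of these 3 was kept when the scaling was changed or P2 was left out. The points share libraries and depth, and P2 sets most of the range.

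Among the 6 genes themselves, Lyz1 correlated with Itln1 at r = 0.9998, with Ang4 at 0.998, with Pla2g2a at 0.983 and with Mmp7 at 0.980. Lyz2 correlated with the other 5 between 0.815 and 0.905. Of 20 alpha-defensins in the files 16 were tested, and all 16 passed as higher in P2 against the mean of the other 4. Their median log2 difference was 6.78, beside a median of 6.47 for the 6 genes and -0.00043 for all genes. In P1 against P3, P4 and P5, 14 of the 16 passed as higher. Of all genes tested, 16.3% passed as higher in P2 and 18.8% in P1. The summed level of the 20 alpha-defensins in P1 was 9564 normalized CPM in replicate 1 and 34144 in replicate 2. This difference had the same direction as that of the granule genes.

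Of 15 other secreted Paneth proteins, 10 passed as higher and 1 as lower in P2 against the mean of the other 4, with a median log2 difference of 4.83. Pnliprp2, a pancreatic lipase-related protein, had the largest difference at 6.76, followed by Habp2, a secreted serine protease, at 6.37 and Clps at 6.34. These 3 also led in P1 against P3, P4 and P5, at 4.04, 3.38 and 3.89. Of 22 genes listed as regulators and parts of the Paneth secretory machinery, 15 passed as higher and 2 as lower, and their median was 3.01. The 2 were Fzd5 (-2.17) and Xiap (-0.85). Because markers of other secretory cells were high in P2 as well, given below, this count is not particular to Paneth cells. Bhlha15, the secretory cell transcription factor Mist1, stood at 5.99, Cpe, a carboxypeptidase that processes prohormones, at 5.03, and Ern2, an endoplasmic reticulum stress sensor of mucosal epithelia, at 4.17. Of all genes tested, 16.3% passed as higher and 10.7% as lower in P2. In P1 against P3, P4 and P5, 3 of these 22 passed as higher and 4 as lower, with a median of -0.26, where 18.8% of all genes passed as higher and 12.9% as lower. The largest of these differences were -2.33 for Ephb2, a receptor that positions crypt cells, 2.18 for Vamp8, which acts in granule exocytosis, and 2.05 for Xiap, an inhibitor of apoptosis.

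Markers of other secretory cells were high in P2 as well. Goblet markers passed as higher in P2 for 16 of 18 genes (median log2 difference 3.42), enteroendocrine markers for 15 of 16 (5.06) and tuft markers for 10 of 12 (3.34), each in P2 against the mean of the other 4. Of all genes tested, 16.3% passed as higher there. The largest differences were those of Zg16 (4.41), Muc2 (4.30) and Clca3 (4.24) among goblet markers, of the hormone genes Sst (6.23), Nts (5.68) and Gip (5.66) among enteroendocrine markers, and of Pou2f3 (4.75), Sh2d6 (4.08) and Ptgs1 (3.93) among tuft markers. In P1 against P3, P4 and P5, none of the 18 goblet markers passed as higher and 1 as lower (Clca1, -2.12), and none of the 12 tuft markers passed. Of the 16 enteroendocrine markers, Sst passed as higher (2.35) and Cck as lower (-3.13). Of 15 enterocyte markers 7 passed as higher, with a median of 1.62, led by Krt20 (3.94), Fabp2 (3.81) and Rbp2 (2.98). In P1 against P3, P4 and P5, 18.8% of all genes tested passed as higher and 12.9% as lower. In P2 none of the 15 enterocyte markers passed as higher and 5 as lower, where 16.3% and 10.7% of all genes did.

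Of 37 relatives of the 6 genes in the files, 15 passed the filter on low counts. In P2 against the mean of the other 4, 11 of the 15 passed as higher and 1 as lower, with a median log2 difference of 2.46. Of all genes tested, 16.3% passed as higher and 10.7% as lower. Mmp8, the collagenase of neutrophils, had the largest difference at 5.97 ± 1.07 (SE), on 14 and 11 counts in P2 and at most 3 in any other library. Rnase4, a ribonuclease, had the highest mean level of the relatives, 274 normalized CPM without regard to length, and a difference of 3.48 ± 0.24. The further lysozyme-like genes had at most 6 counts in any library. Pla2g2f, a phospholipase A2 encoded near Pla2g2a, had 1299 and 1457 counts in P2 against 93 and 182 in P1 and 10 to 84 in the other libraries, and its log2 difference was 5.47 ± 0.27 (SE). Rnase1, a secreted ribonuclease of the same superfamily as Ang4, stood at 4.59 ± 0.31. In P1 against P3, P4 and P5, 2 of the 15 relatives passed as higher and 1 as lower, with a median log2 difference of -0.50. Of all genes tested, 18.8% passed as higher there and 12.9% as lower. The 2 were Pla2g2f (2.01 ± 0.32, SE) and Rnase1 (1.77 ± 0.35). Mmp14, a membrane-bound protease, was the lower one, at -1.66 ± 0.23.

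The promoters of the lysozyme pair are alike near the start. The 120 bases before each start site, from RefSeq on GRCm38.p6 (minus strand, chr10:117292869-117292988 for Lyz1 and chr10:117282273-117282392 for Lyz2), differ at 9 positions, an identity of 92.5% without gaps. Over 250 bases the identity without gaps was 60.8%. A comparison without gaps cannot tell changed bases from a shift by an insertion or deletion, so divergence farther out was not tested. The pair is shown because the counts of the genes differed by a factor that itself changed between P1 and P2, and capitals mark the bases that differ.
Lyz1: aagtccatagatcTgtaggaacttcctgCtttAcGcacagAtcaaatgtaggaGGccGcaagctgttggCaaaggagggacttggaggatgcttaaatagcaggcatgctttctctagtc
Lyz2: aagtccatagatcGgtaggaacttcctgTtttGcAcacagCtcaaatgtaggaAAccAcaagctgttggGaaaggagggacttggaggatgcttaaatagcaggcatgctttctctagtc

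RefSeq entries were matched for 5 of the 6 genes, all but Pla2g2a. In the 250 bases before the start, on both strands, a search was made for the TATA box TATAAA (in 12.4% of 32851 promoters), the TCF and LEF core CTTTGA (13.8%), and the E-boxes CAGCTG (13%) and CAGATG (14.4%). Mmp7 held TATAAA at -123 to -118 and at -26 to -21 of its first start, and CTTTGA on the opposite strand at -246 to -241 of its second start. Ang4 held CAGATG at -235 to -230. The windows of Lyz1, Lyz2 and Itln1 held none of these letters. A match describes the sequence and is not a measured site.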

How the data were processed

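Crypt cells of EF1a-OSCAR mice were sorted into 5 populations, and poly-A RNA of 10000 cells each was sequenced over 75 cycles in 2 libraries per population. Per the labels and methods, the authors mapped reads with TopHat 2.1.0 and Bowtie to mm9 after FastQC 0.11.5, and deposited raw counts per gene from HTSeq-count 0.11.2, made on exons without strand and without reads of more than 1 alignment. The annotation behind the counts is not given in the sources used here. Libraries held 3857612 to 6485823 counts on genes, so the floor of 3 counts was 0.463 to 0.778 CPM, which covers counting error only.

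Gene names were looked up in GENCODE for NCBIM37, where 33643 of 35006 were found, and 204 rRNA names were removed, as the authors did. The 6 entries that name no gene (HTSeq-count's summary lines and a blank name) held 18.7% to 44.3% of the reads in a file and were left out. Genes were filtered with filterByExpr (minimum count 10), which kept 13708, with TMM scaling. One model with a mean per population was fitted to all 10 libraries (5 residual degrees of freedom) in edgeR 4.0.16 (limma 3.58.1, R 4.3.3), and contrasts used its quasi-likelihood test, with p-values adjusted over all genes by Benjamini-Hochberg and called at 0.01. The SE of a log2 fold change is its size divided by the root of the F statistic. The procedure was tested on simulated data.

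Groups come from the deposited labels. The 6 genes and all lists were chosen with earlier results of these data known. So were the comparisons of P2 with P1 and of P1 with P3, P4 and P5. Their p-values are therefore not those of comparisons chosen without sight of the values. The rule for named genes took, beside the 6, each list's highest gene, its 3 largest changes past the threshold in P2 and in P1, and the genes most like each member. An item is not reported here, and the text gives alpha-defensins and leukocyte markers mainly by counts. Markers named for other reasons were chosen after their values were seen. Alternatives covered DESeq2 1.42.0, the scaling, filter, threshold, rRNA and mitochondrial genes, the libraries fitted, the block and each library left out. Python 3.11.15 was used with numpy 2.4.6, pandas 2.3.3, matplotlib 3.10.9 and scipy 1.17.1. Promoters are RefSeq sequences.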

Additional observations from a re-analysis of the deposited data

How the results depend on the processing

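P2 against the average of the others kept 6 of 6 genes called under all alternatives run, and P3 against P4 and P5 kept 0. P2 against P1 (2 called) gave 5 with no filter on low counts, with DESeq2 and at an adjusted p under 0.05, and 0 to 3 with a library left out, 0 without either library of P1 or P2. P1 against P3, P4 and P5 (6 called) gave 2 to 6 with a library left out, 2 without replicate 2 of P1. P5 against P4 (0 called) gave 5 with no filter and 3 with DESeq2. The added difference of EF1a contrasts (0 called) gave 6 with no filter, 5 with DESeq2, 3 with total counts only, and 1 with other size factors, with scaling without the members and defensins, without mitochondrial genes and with the replicate block. With P2 and P3 exchanged in that term (0 called), no filter gave 1. Deviations of same-numbered libraries correlated at -0.06 to 0.554 over 10 pairs of populations, 9 of them over 0.1. Most thus deviated together, but no label ties a number to an animal or day and P2 with P3 fell below 0.1, so the block is given as an alternative only. With the replicate block P2 against P1 stayed at 2 called, with 4519 genes called in place of 3985, and the difference of EF1a contrasts had 627 genes called in place of 112. The cause of these changes was not tested.

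Direction turned only for values that passed in no setting. For P2 against P1, Lyz2 stood at -0.078 with total counts only and between -0.14 and 1.13 with a library left out (negative without replicate 1 of P1). For P3 against P4 and P5, total counts only gave -0.95 for Lyz1, -0.81 for Itln1, -1.01 for Ang4 and -0.13 for Pla2g2a, and scaling without the members and defensins gave -0.00084 for Ang4. With a library left out, these differences ran from -0.37 to 1.06 for Lyz1, -0.21 to 1.08 for Itln1, -0.45 to 0.99 for Ang4, -0.63 to 2.06 for Pla2g2a, -0.75 to 0.31 for Mmp7 and -5.68 to 1.57 for Lyz2, and Lyz2 in P5 against P4 ran from -1.80 to 5.81. A fit of only the populations compared could not apply to P2 against all others. With 2 libraries per population, 1 library decides several values, a lone library is assumed to vary like the rest, and Lyz2 outside P1 and P2 rests on 0 to 19 counts.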
